A study of Mus musculus with 1087 samples.

Results

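Genes that carry iron into cells, store it, release it or sense it were followed through single cells of the mouse aorta-gonad-mesonephros (AGM) region. The members are Tfrc, Tfr2, Steap3, Slc11a2, Slc25a37, Fth1, Ftl1, Slc40a1, Aco1 and Ireb2, found by symbol in the GENCODE M21 annotation, and all 10 were among the 46078 genes of the count table. Each of the 1087 libraries is 1 cell labeled Kit-high. At E11.5 they were CD27+ cells (10.9% of all), G2VInt cells with intermediate Venus (25.7%) and G2VLo cells with low Venus (43.4%). G2VInt cells were also taken at E10 (87 cells) and E11 (130 cells). All embryos were Gata2V/+, from C57BL/6HsdJOla wild-type mothers and Gata2V/V fathers, so every group carries the Venus reporter of Gata2 and none is free of it. The labels give no Venus gate for CD27+ cells, and E10, E11 and E11.5 are days of gestation.

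The authors' labels also place each cell in a cluster and, outside the CD27+ sort, in a class. Endothelial markers summed to 10237 CPM, the usual depth-scaled read count, in EC cells of E11.5 G2VInt, against 3030 CPM in HC1 cells, the class with the most cells over all groups. HC2 holds clusters 9, 10 and 11. Erythroid genes (such as Ermap and Ank1) led cluster 11, whose erythroid markers summed to 1674 CPM, so it is called erythroid-like. Although the labels call every library IAHC cells, the 85 U1 cells (clusters 5 and 6) had 12 of 13 macrophage markers above 1 CPM and 17003 CPM of them in G2VLo, and are called macrophage-like. The 19 U2 cells are not described further. Classes came from clustering on expression, so a difference between classes is a description.

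Cells take up iron mainly bound to transferrin: the transferrin receptor carries it into endosomes, a reductase converts it to ferrous iron, and a divalent metal transporter passes it to the cytosol. From there it goes to mitochondria for heme and iron-sulfur clusters, into ferritin for storage, or out through ferroportin. Erythroid precursors are the main consumers, and macrophages that clear red cells are the main recyclers. Iron regulatory proteins bind a short stem-loop, the iron-responsive element (IRE), in messages of this pathway: in a 5′ UTR binding blocks translation, and in the 3′ UTR of Tfrc it protects the message.

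The element is printed here where its letters were found in a member. Protein-coding transcripts of each member, those marked basic in GENCODE, were searched on the transcribed strand for a 27-base window. The window had an unpaired C and the loop CAGTGN, where N was not G. There were 5 pairs above the C and at least 4 of 5 pairs below it. The capitals mark the 6 loop bases.
Tfrc 3′ UTR, chr16:32631220-32631246 (+): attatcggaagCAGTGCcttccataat
Tfrc 3′ UTR, chr16:32631599-32631625 (+): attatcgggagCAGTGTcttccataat
Tfrc 3′ UTR, chr16:32631664-32631690 (+): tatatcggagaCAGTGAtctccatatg
Tfrc 3′ UTR, chr16:32631711-32631737 (+): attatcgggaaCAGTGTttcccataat
Fth1 5′ UTR, chr19:9982733-9982759 (+): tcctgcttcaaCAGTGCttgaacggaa
Ftl1 5′ UTR, chr7:45459780-45459806 (-): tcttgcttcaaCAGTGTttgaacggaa
Slc40a1 5′ UTR, chr1:45925466-45925492 (-): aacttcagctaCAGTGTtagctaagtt
Coordinates are GRCm38. The same search was made in the principal transcripts of all genes. Of 18685 genes with a 5′ UTR, 6 held a match (0.0321%), and of those with a 3′ UTR, 4 did (0.0203%). Tfrc held 4 matches, and Fth1, Ftl1 and Slc40a1 held 1 each. No match was found in the principal transcripts of Tfr2, Steap3, Slc11a2, Slc25a37, Aco1 or Ireb2. A match describes letters, and read counts do not measure translation.

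Embryos, litters and sorts are not given in the labels. Each group therefore counts as 1 sample, and no test was possible. A level, in CPM, is the reads of a gene summed over the cells of a group and scaled by all their reads, with an exact Poisson 95% interval. A share is the percent of cells with a read after each cell was thinned to 100000 reads, with a Clopper-Pearson 95% interval. Both intervals cover counting error only, and without molecular identifiers copies made by PCR count as reads. Median depth was 621544 reads per cell in CD27+, 1892779 in E11.5 G2VInt and 539090 in G2VLo cells, and 2121423 at E10 and 2212898 at E11. The median mitochondrial share was 8.29% in CD27+ and 6.41% in G2VLo cells, against 2.04% to 2.93% in the G2VInt groups. Library numbers of the CD27+ cells and of each G2VInt group form 1 run each, and those of G2VLo lie on both sides of the CD27+ run. The runs do not overlap between groups, so run and gate or day cannot be told apart. A member was called when its level differed at least 2-fold, with at least 10 CPM and a read in at least 20% of cells in the higher group.

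Per kilobase of transcript, Fth1 stood highest, with group levels between 993 and 1539 RPKM, followed by Ftl1 with 90.9 to 172.7 RPKM. The other 8 members had mean group levels of 5.51 to 15.2 RPKM, and their order among each other changed with the group. Fth1 and Ftl1 each had at least 1 read in all 1087 cells, Ireb2 in 1001, Aco1 in 893 and Tfrc in 840. Slc25a37 had a read in 739 cells, Slc11a2 in 634 and Slc40a1 in 482, and Tfr2 and Steap3 in fewer.

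**Figure D1:**
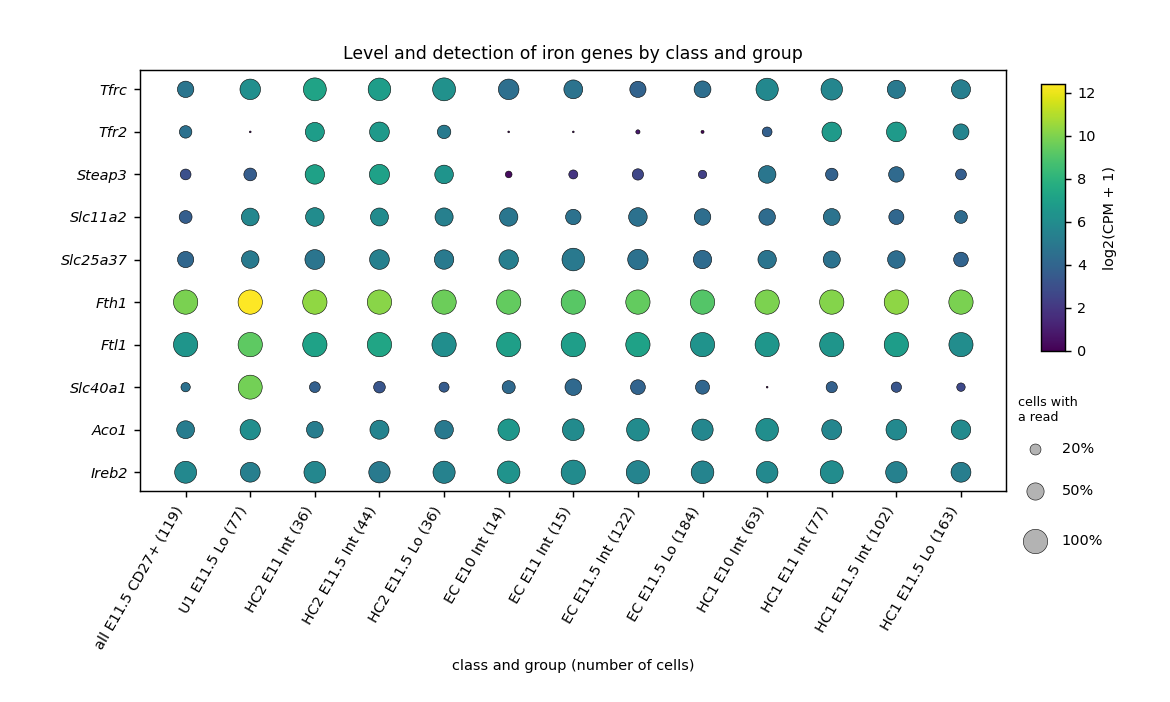
Level (colour, log2 of CPM + 1) and percent of cells with a read after thinning (dot size) of the 10 iron genes. Columns are the CD27+ cells and each class except U2 in each group with at least 10 cells (Int, G2VInt, and Lo, G2VLo). Fth1 and Slc40a1 are brightest in U1, Tfr2 is nearly absent from U1 and EC, and Tfrc and Steap3 are highest in HC2.

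In HC2 cells of E11.5 G2VInt, Tfrc, Steap3, Slc11a2 and Slc25a37 had higher levels than in HC1, while the receptor Tfr2 did not. Tfrc (ENSMUSG00000022797, chr16:32608920-32632794) encodes the main transferrin receptor. Its level at E11.5 in G2VInt was 113.9 CPM (111.5 to 116.3) in HC2 cells and 31.01 CPM (30.2 to 31.9) in HC1 cells, a ratio of 3.67. Steap3 (ENSMUSG00000026389, chr1:120190757-120272705), the endosomal ferric reductase, had 132.3 CPM in HC2 and 18.1 CPM in HC1, a ratio of 7.32 (7.03 to 7.62). Slc11a2 (ENSMUSG00000023030, chr15:100387898-100425072), the divalent metal transporter DMT1, had 59.1 CPM in HC2 and 16.1 CPM in HC1. Slc25a37 (ENSMUSG00000034248, chr14:69241848-69285112), the mitochondrial importer mitoferrin-1, had 39.998 CPM in HC2 and 19.5 CPM in HC1, a ratio of 2.05. It fell below 2-fold, to 0.97 on the log2 scale, when cells were thinned to equal depth. These 4 members were called higher and none lower, where 6.46% of 10102 genes tested were called higher and 15.8% lower. The median log2 ratio was 0.20 over all 10 members, 0.44 over the 9 members tested and -0.08 over all genes tested.

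The 6 other members were not called. Tfr2 (ENSMUSG00000029716, chr5:137569840-137587481), a second transferrin receptor known from hepatocytes and erythroid precursors, had 98.1 CPM in HC2 and 103.7 CPM in HC1. Ratios of Fth1, Ftl1, Aco1 and Ireb2 lay between 0.801 and 1.36. Slc40a1 had under 10 CPM in both and was not counted as tested. In the other groups, Steap3 had 134.6 CPM in HC2 and 13.4 CPM in HC1 at E11, and 82.7 CPM in HC2 and 11.46 CPM in HC1 in G2VLo. Tfrc had 144.5 CPM in HC2 and 51.3 CPM in HC1 at E11, and 73.1 CPM in HC2 and 37.2 CPM in HC1 in G2VLo. Slc11a2 had 62.4 CPM in HC2 and 25.4 CPM in HC1 at E11, and 40.3 CPM in HC2 and 18.2 CPM in HC1 in G2VLo. In all 3 groups these genes were thus higher in HC2 as a whole than in HC1, Tfrc by 1.97-fold in G2VLo. Cluster 9, with 23 of the 36 HC2 cells of G2VLo, was close to HC1 of G2VLo in 2 of them. It had 40.1 CPM of Tfrc and 18.6 CPM of Slc11a2, but 26.9 CPM of Steap3. Slc25a37 had 27.4 CPM in HC2 and 24.9 CPM in HC1 at E11, close together, and 31.99 CPM in HC2 and 14.4 CPM in HC1 in G2VLo.

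HC2 was not uniform in these genes. In E11.5 G2VInt the erythroid-like cluster 11 had 13 cells and cluster 10, led by Cd3g, Slc45a3 and the mast cell genes Hdc and Cpa3, had 23. Tfrc had 205.2 CPM in cluster 11 and 70.9 CPM in cluster 10, and every cluster 11 cell kept a read after thinning. Steap3 had 248.4 CPM in cluster 11 and 96.7 CPM in cluster 10, where 1 cell gave 44.8% of the reads. Slc11a2 had the largest ratio of the uptake genes, with 122.1 CPM (117.9 to 126.4) in cluster 11 and 28.6 CPM (26.8 to 30.5) in cluster 10, where 1 cell gave 44.1% of the reads. Its median per cell was 99.4 CPM in cluster 11 and 1.07 CPM in cluster 10. Tfr2 had 172.05 CPM in cluster 11 and 83.2 CPM in cluster 10. Ftl1 ran the other way, with 132.6 CPM in cluster 11 and 169.7 CPM in cluster 10. Slc40a1 had 21.6 CPM in cluster 11 and 2.51 CPM in cluster 10, from 571 and 83 reads. A single cell gave 37.7% of those in cluster 11, where the median cell had 1.72 CPM, and 78.3% of those in cluster 10, where the median cell had none. Macrophage markers summed to 7.10 CPM in cluster 11 and 80.7 CPM in cluster 10. Erythroid markers summed to 995 CPM in cluster 10.

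Tfr2 in HC2 of E11, and Steap3 in HC2 of E11.5 G2VInt, were correlated with an erythroid regulator over cells. Across the 36 HC2 cells of E11, Spearman's rho of Tfr2 with Klf1, an erythroid transcription factor, was 0.79. Across the 44 HC2 cells of E11.5 G2VInt, rho was 0.68 between Steap3 and Klf1, 0.61 between Steap3 and Slc11a2 and 0.57 between Tfrc and Steap3. These are descriptions over cells of 1 sample that differ in depth and cluster.

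In the heme list, the called genes were all higher in HC2. Of its 20 genes, 17 passed the limits in HC2 over HC1 of E11.5 G2VInt, and 10 were called higher and none lower, beside 6.46% of all genes higher and 15.8% lower, the shares that also apply to the other lists here. Blvrb, a biliverdin reductase, had 360 CPM in HC2 and 11.8 CPM in HC1. Cpox, an enzyme of heme synthesis, had 174.7 CPM in HC2 and 11.4 CPM in HC1, and Fech, which inserts the iron, had 135.6 CPM in HC2 and 42.8 CPM in HC1. Of 25 iron-sulfur assembly genes, 2 were called higher and none lower, among them the glutaredoxin Glrx5 with 348.1 CPM in HC2 and 169.2 CPM in HC1. Among 16 other transport genes, 6 passed the limits, with 3 called higher and 3 lower. The ferroxidase Heph had 0.456 CPM in HC2 and 27.2 CPM in HC1. In the sensing list of 10 genes, Epas1 and Fbxl5, which marks an iron regulatory protein for degradation, were called lower. Fbxl5 had 36.9 CPM in HC2 and 82.8 CPM in HC1. The hepcidin list of 8 genes had 1 that passed the limits, Hfe, called lower.

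**Figure D2:**
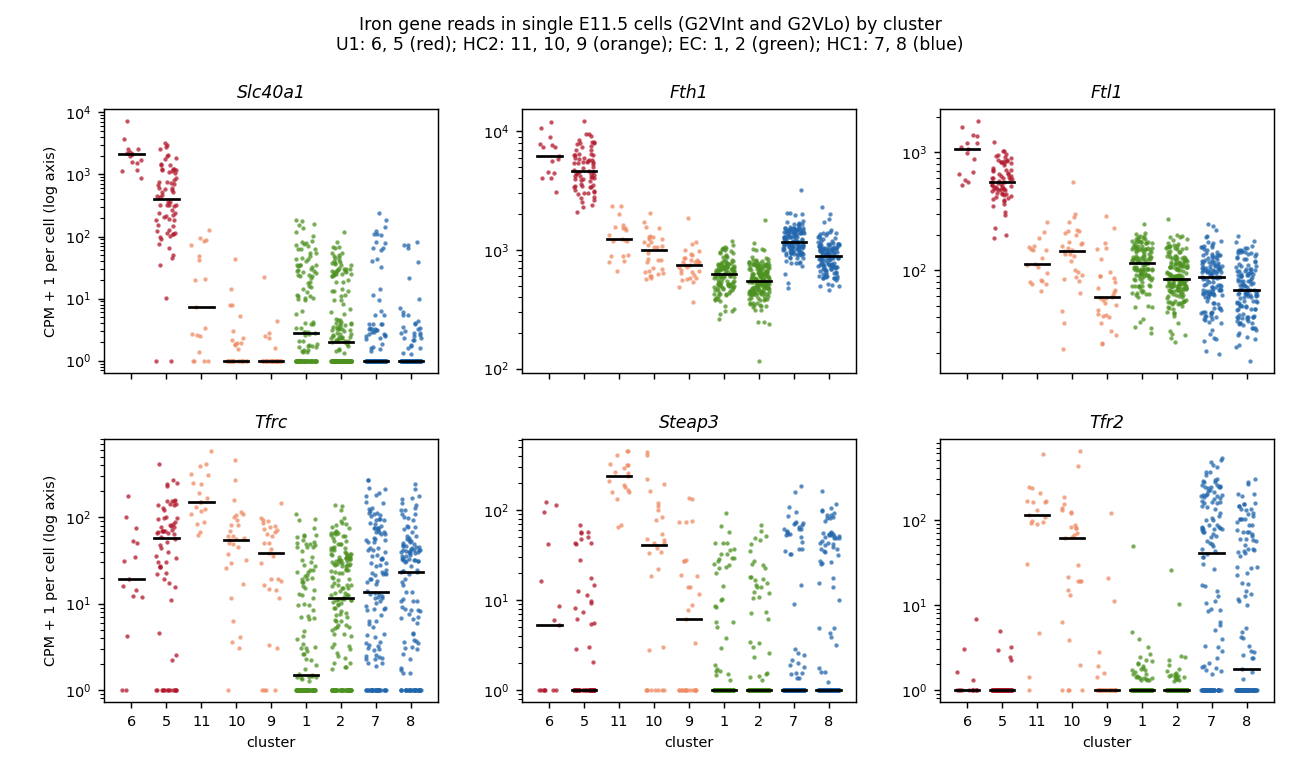
CPM + 1 of 6 iron genes in each E11.5 cell (G2VInt and G2VLo together) by cluster, on log axes, with the bar at the median. Cluster 6 and cluster 5 have the highest Slc40a1 medians, cluster 11 has the highest medians of Steap3 and Tfrc, and the median of Tfr2 is 0 in clusters 6, 5, 9, 1 and 2.

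Macrophage-like cells had higher levels of Slc40a1, Fth1 and Ftl1 than HC1 cells in both gates of E11.5. Slc40a1 (ENSMUSG00000025993, chr1:45908068-45926523) encodes ferroportin, the only known exporter of iron from mammalian cells. In G2VLo it had 847 CPM (838 to 856) in 77 U1 cells and 5.56 CPM (5.04 to 6.12) in HC1 cells, which were 34.5% of the group. The ratio was 152.2 (138.2 to 167.99). After thinning, 97.4% of U1 cells and 11.7% of HC1 cells had a read. Ferritin heavy chain Fth1 (ENSMUSG00000024661, chr19:9980598-9985098) had 5354 CPM in U1 and 962 CPM in HC1. The light chain Ftl1 (ENSMUSG00000050708, chr7:45457944-45459884) had 629 CPM in U1 and 63.7 CPM in HC1, a ratio of 9.88. Slc11a2 had 52.6 CPM in U1 and 18.2 CPM in HC1, and Slc25a37 had 32.1 CPM in U1 and 14.4 CPM in HC1. Tfr2 went the other way: 5 reads in U1 gave 0.124 CPM (0.0403 to 0.290), against 47.7 CPM in HC1, and 0 of 77 U1 cells kept a read after thinning. That allows up to 3.90% of cells by a limit of 3 counts and 4.68% by the Clopper-Pearson interval. Before thinning, 6.49% of U1 cells had a read. The 8 U1 cells of E11.5 G2VInt had 1968 CPM of Slc40a1, 6562 CPM of Fth1 and 1195 CPM of Ftl1, against 9.06, 1257 and 113.2 CPM in HC1 of that group. Slc11a2 was not higher there, with 15.6 CPM in U1 and 16.1 CPM in HC1, and Slc25a37 was close, with 20.3 CPM in U1 and 19.5 CPM in HC1.

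In the G2VLo comparison 5 members were called higher and 1 lower, where 12.8% of 9972 genes were called higher and 28.4% lower. Tfrc, with 68.8 CPM in U1 and 37.2 CPM in HC1, reached 1.85-fold. TMM scaling, which moved every ratio here by 0.40 on the log2 scale, gave 1.29, past the limit. Steap3, Aco1 and Ireb2 had ratios of 0.984, 1.13 and 1.05. Ferritin reads can be shared with near-identical copies, so both ferritin levels are uncertain to that extent. The copies listed held little, with 0.945 CPM for Fth-ps2 and 0.793 CPM for Ftl1-ps1 over all cells.

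The 2 macrophage-like clusters differed within G2VLo. Slc40a1 had 2580 CPM in the 12 cluster 6 cells, with quartiles per cell of 1445 and 2373 CPM, and 587 CPM in the 65 cluster 5 cells, with quartiles of 127.2 and 866 CPM. A single cell gave 37.7% of the cluster 6 reads. Ftl1 had 918 CPM in cluster 6 and 586 CPM in cluster 5, and Fth1 had 6452 CPM in cluster 6 and 5189 CPM in cluster 5. The uptake genes did not move together. Slc11a2 and Tfrc were lower in cluster 6, with 22.1 CPM against 57.2 CPM for Slc11a2 and 41.2 CPM against 72.95 CPM for Tfrc in cluster 5. Steap3 was higher, with 21.2 CPM in cluster 6, where 1 cell gave 38.7% of the reads, and 9.80 CPM in cluster 5. A single cell gave 75.9% of the Slc11a2 reads of cluster 6. Cluster 6 also had 6485 CPM of Hmox1, the heme oxygenase that frees iron from heme, against 1259.9 CPM in cluster 5. Erythroid markers summed to 466.1 CPM in cluster 6 and 52.3 CPM in cluster 5, and their part in these differences was not tested. Of those, 5 globin genes made 403.6 CPM in cluster 6 and 1.74 CPM in cluster 5.

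In the other lists, read against the same 12.8% of genes higher and 28.4% lower, 6 of 17 heme genes that passed the limits were called higher in U1 than in HC1 and 2 lower. Hmox1 had 1941 CPM in U1 and 37.3 CPM in HC1. Flvcr1, a heme exporter, had 19.5 CPM in U1 and 3.93 CPM in HC1. Of the iron-sulfur genes 5 of 25 were called lower, a smaller share than the 28.4% of all genes, and none higher. Among the lower was Ciapin1, with 35.9 CPM in U1 and 142.3 CPM in HC1. Hfe of the hepcidin list had 219.03 CPM in U1 and 8.50 CPM in HC1. In the sensing list, 2 of 9 genes were called higher and 1 lower. Nfe2l2, a transcription factor of the oxidative stress response, had 380 CPM in U1 and 110.4 CPM in HC1, and Epas1, called lower, had 5.57 CPM in U1 and 19.3 CPM in HC1. Of the other transport genes 3 were called higher and 1 lower, with Slc39a8 at 42.5 CPM in U1 and 8.65 CPM in HC1. Across the 77 U1 cells of G2VLo, rho was 0.55 between Fth1 and Ftl1.

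EC cells of E11.5 G2VInt had lower levels of Tfr2, Tfrc and Steap3 than HC1 cells, but not of Slc11a2. In E11.5 G2VInt, Tfr2 had 0.870 CPM in EC and 103.7 CPM in HC1, and 2.46% of EC cells and 65.7% of HC1 cells had a read. A single cell gave 50.8% of the EC reads. Tfrc had 13.97 CPM in EC and 31.01 CPM in HC1, and Steap3 had 5.24 CPM in EC and 18.1 CPM in HC1. These 3 members were called lower and none higher, where 11.6% of 10428 genes were called lower and 12.2% higher. The log2 ratio of Tfrc, -1.15, was -0.96 under TMM scaling, below 2-fold. Splitting each group at its median library number gave -0.31 in the cells with the lower numbers and -2.01 in those with the upper ones. Slc40a1 had 14.2 CPM in EC and 9.06 CPM in HC1, with a read in 36.9% of EC cells and 17.6% of HC1 cells. Slc11a2 had 23.3 CPM in EC and 16.1 CPM in HC1, Fth1 had 678 CPM in EC and 1257 CPM in HC1, and ratios of Slc25a37, Ftl1, Aco1 and Ireb2 lay between 1.10 and 1.22. In G2VLo, Tfr2 had 10 reads in EC cells, or 0.0821 CPM, against 47.7 CPM in HC1. Slc40a1 was more than 2-fold higher in EC there, with 15.2 CPM in EC and 5.56 CPM in HC1, and 33.2% of EC cells had a read. Tfrc, with 20.3 CPM in EC and 37.2 CPM in HC1 of G2VLo, stayed within 2-fold. Steap3 had 4.24 CPM in EC and 11.46 CPM in HC1 of G2VLo, but 19.6% of these HC1 cells had a read, under the limit of 20%. None of the 14 EC cells of E10 had a read of Tfr2 after thinning, which allows up to 21.4% of cells by the limit of 3 counts and 23.2% by the Clopper-Pearson interval.

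In the other lists, read against the same 12.2% of genes higher and 11.6% lower, 3 of 16 heme genes were called higher in EC than in HC1 and 1 lower. The lower one, the heme transporter Slc48a1, had 17.6 CPM in EC and 164.98 CPM in HC1. Of 9 sensing genes 1 was called higher and 1 lower. The hypoxia factor Epas1 had 161.8 CPM in EC and 29.4 CPM in HC1, and Ncoa4, which carries ferritin to degradation, had 6.19 CPM in EC and 16.2 CPM in HC1. Of 5 transport genes 2 were called higher and 1 lower, and Heph had 62.8 CPM in EC and 27.2 CPM in HC1. Neo1 of the hepcidin list had 25.6 CPM in EC and 5.02 CPM in HC1. Of 25 iron-sulfur genes 3 were called lower, near the 11.6% of all genes, and none higher. Among the lower was the co-chaperone Hscb with 20.6 CPM in EC and 64.5 CPM in HC1.

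By day, Tfr2 was the member called in HC1 cells of E11.5 over E10. Its level was 12.3 CPM (11.7 to 12.9) at E10, 101.4 CPM at E11 and 103.7 CPM at E11.5 in G2VInt, and 15.9%, 64.9% and 65.7% of cells had a read on those days. The levels of E11 and E11.5 were 1.02-fold apart. Both HC1 clusters showed it: 19.99, 103.5 and 131.9 CPM in cluster 7 and 6.13, 98.5 and 59.6 CPM in cluster 8. In E11.5 over E10 HC1 cells Tfr2 was called higher and no member lower, where 4.38% of 9925 genes were called higher and 1.77% lower. The ratio was 8.46 (8.04 to 8.91).

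Slc40a1 was nearly unread in HC1 cells of E10. There was 1 read in 63 cells, and 0 of 63 kept it after thinning, which allows up to 4.76% of cells by the limit of 3 counts. At E11 the level was 12.9 CPM, with a read in 20.8% of cells, and at E11.5 it was 9.06 CPM, with a read in 17.6%. The ratio of E11.5 over E10 rests on that 1 read, with an interval from 214.5 to 47316. The median cell had no read on any day, so the level came from a minority of cells. Macrophage markers summed to 256.1, 463.6 and 395.03 CPM in HC1 at E10, E11 and E11.5, with 3, 6 and 7 of 13 above 1 CPM, and their part was not tested. Of these, C1qa, C1qb, C1qc, Timd4, Cd163 and Ctss were at 0 in HC1 of E10. EC cells of E10 did have Slc40a1 reads, at 18.001 CPM in 14 cells.

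The other members differed less between E10 and E11.5. Tfrc in HC1 had 53.2, 51.3 and 31.01 CPM at E10, E11 and E11.5, and the ratio of E11.5 over E10 was 0.583. Its log2 ratio, -0.78, was -1.36 in the lower library numbers and -0.28 in the upper ones. Within cluster 8 it had 53.1, 43.6 and 17.0 CPM. Steap3 had 27.9, 13.4 and 18.1 CPM, a ratio of 0.481 for E11 over E10. Of the 2 regulators, Aco1 was lowest and Ireb2 highest at E11. Aco1 (ENSMUSG00000028405, chr4:40143081-40198338), iron regulatory protein 1 and the cytosolic aconitase, had 65.2, 51.3 and 55.02 CPM. Ireb2 (ENSMUSG00000032293, chr9:54863789-54912530), iron regulatory protein 2, had 55.2, 61.8 and 40.8 CPM. Fth1, Ftl1, Slc11a2 and Slc25a37 had ratios of E11.5 over E10 between 0.750 and 1.29. Of the other lists Epas1 was called higher, and Slc46a1, a folate and heme transporter, lower.

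**Figure D3:**
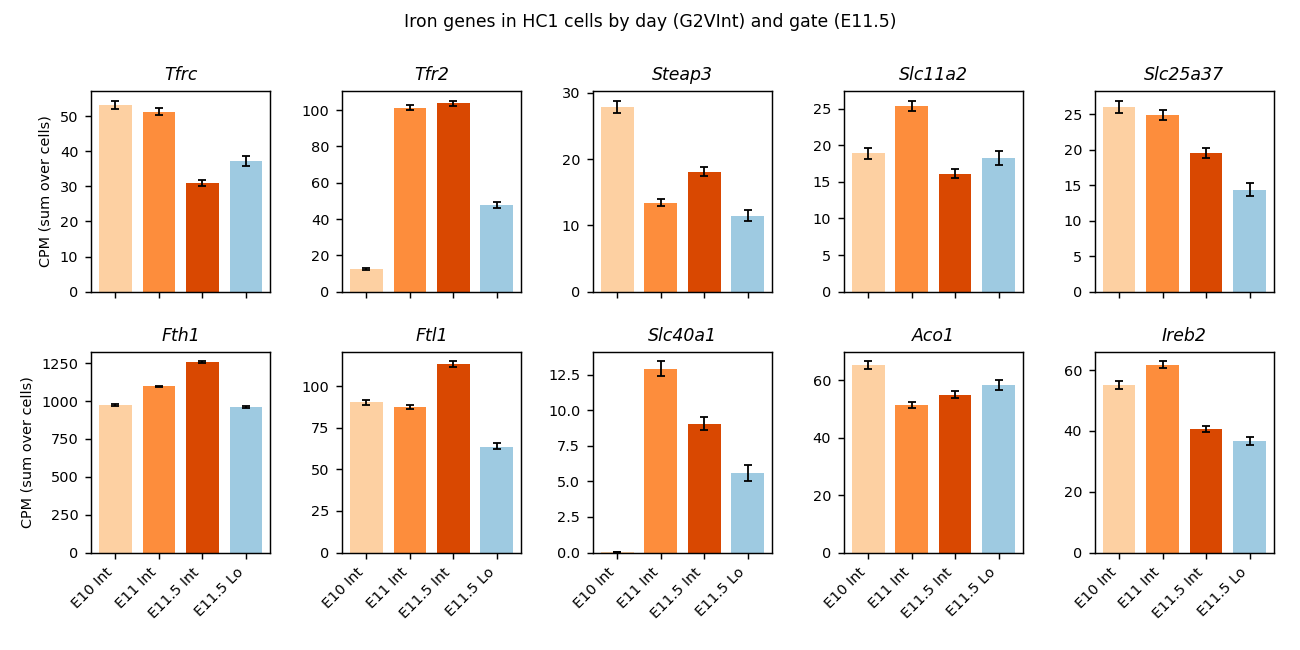
Level (CPM over all HC1 cells, bars start at 0) of the 10 genes in HC1 cells of G2VInt at E10, E11 and E11.5 and of G2VLo at E11.5, with exact Poisson 95% intervals that cover counting error only. Tfr2 and Slc40a1 are low at E10 and higher at E11 and E11.5, and Tfrc is lowest at E11.5 in G2VInt.

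Over all G2VInt cells, Tfr2 and Slc40a1 were called in both comparisons with E10. Tfr2 had 9.64, 92.7 and 46.1 CPM at E10, E11 and E11.5, and Slc40a1 had 2.80, 13.8 and 75.8 CPM. For E11 over E10, 2 of 10 members were called higher, where 3.38% of 10001 genes were, and for E11.5 over E10 2 of 10, where 6.45% of 10137 were. No member was called lower in these comparisons, where 0.86% and 2.08% of genes were. Between E11.5 and E11, Tfrc had 34.2 CPM at E11.5 and 69.7 CPM at E11, a ratio of 0.490, and the ratio of Tfr2 was 0.497. The E11.5 level of Slc40a1 came mostly from macrophage-like cells, since 8 cells of clusters 5 and 6 gave 85% of its reads, and no cell of E10 or E11 fell in these clusters. Without clusters 3, 5 and 6 of the clustering of all cells, which hold mostly U1 or U2 cells, the log2 ratio of Slc40a1 for E11.5 over E10 was 2.07 in place of 4.76. HC2 made 9.20%, 27.7% and 15.8% of G2VInt cells at E10, E11 and E11.5, and EC made 16.1%, 11.54% and 43.7%.

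By gate, Tfr2 was the member called higher in G2VInt than in G2VLo cells of E11.5 both over all cells and in HC1. Over all cells it had 46.1 CPM in G2VInt and 16.2 CPM in G2VLo, a ratio of 2.85. Steap3 had 27.5 CPM in G2VInt and 13.4 CPM in G2VLo, a ratio of 2.06, which was 0.90 on the log2 scale under TMM scaling, 0.99 without mitochondrial genes, 0.74 in the lower library numbers and 0.98 without clusters 3, 5 and 6, so below 2-fold in each. Slc40a1 had 75.8 CPM in G2VInt and 140 CPM in G2VLo, a log2 ratio of -0.88. It passed 2-fold under TMM scaling at -1.03, as the mean over cells at -1.39, after thinning at -1.35 and without the top cell of each group at -1.15. Without clusters 3, 5 and 6 it was -0.12. U1 cells gave 92.2% of the Slc40a1 reads and 56.6% of the Fth1 reads of G2VLo. HC2 was 15.8% of the G2VInt and 7.63% of the G2VLo cells. It gave 9869 of the 14992 Steap3 reads of G2VInt and 1699 of the 3535 of G2VLo. The part of this mix in the Steap3 ratio was not tested. Called higher were 2 members and lower 0, where 1.25% of 9999 genes were called higher and 0.91% lower.

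Within HC1, Tfr2 had 103.7 CPM in G2VInt and 47.7 CPM in G2VLo, and 65.7% of G2VInt and 42.9% of G2VLo cells had a read. It was the 1 member called, where 1.94% of 9760 genes were called higher and 0.451% lower, and its log2 ratio of 1.12 was 0.998 under TMM scaling, 1.40 in the lower library numbers and 0.76 in the upper ones, where Ftl1 was called in its place. Ftl1 had 113.2 CPM in G2VInt and 63.7 CPM in G2VLo. In HC2, Tfr2 had 98.1 CPM in G2VInt and 32.8 CPM in G2VLo, and Ftl1 had 153.6 CPM in G2VInt and 65.4 CPM in G2VLo. Cluster 9 was 23 of the 36 HC2 cells in G2VLo and 8 of the 44 in G2VInt. In G2VLo cluster 9 had 7.61 CPM of Tfr2 and 52.8 CPM of Ftl1, so gate and cluster mix cannot be told apart in HC2. In endothelial cluster 2 no member was called, where 1.33% of 9560 genes were called higher and 0.251% lower. Ftl1 had 130.8 CPM in G2VInt and 77.3 CPM in G2VLo there. Ftl1 thus had ratios of 1.78, 2.35 and 1.69 in HC1, HC2 and endothelial cluster 2, while over all cells, where U1 cells weigh on G2VLo, its ratio was 1.04. The 2 groups differ in depth and mitochondrial share, and the part of these in the Ftl1 levels was not tested.

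**Figure D4:**
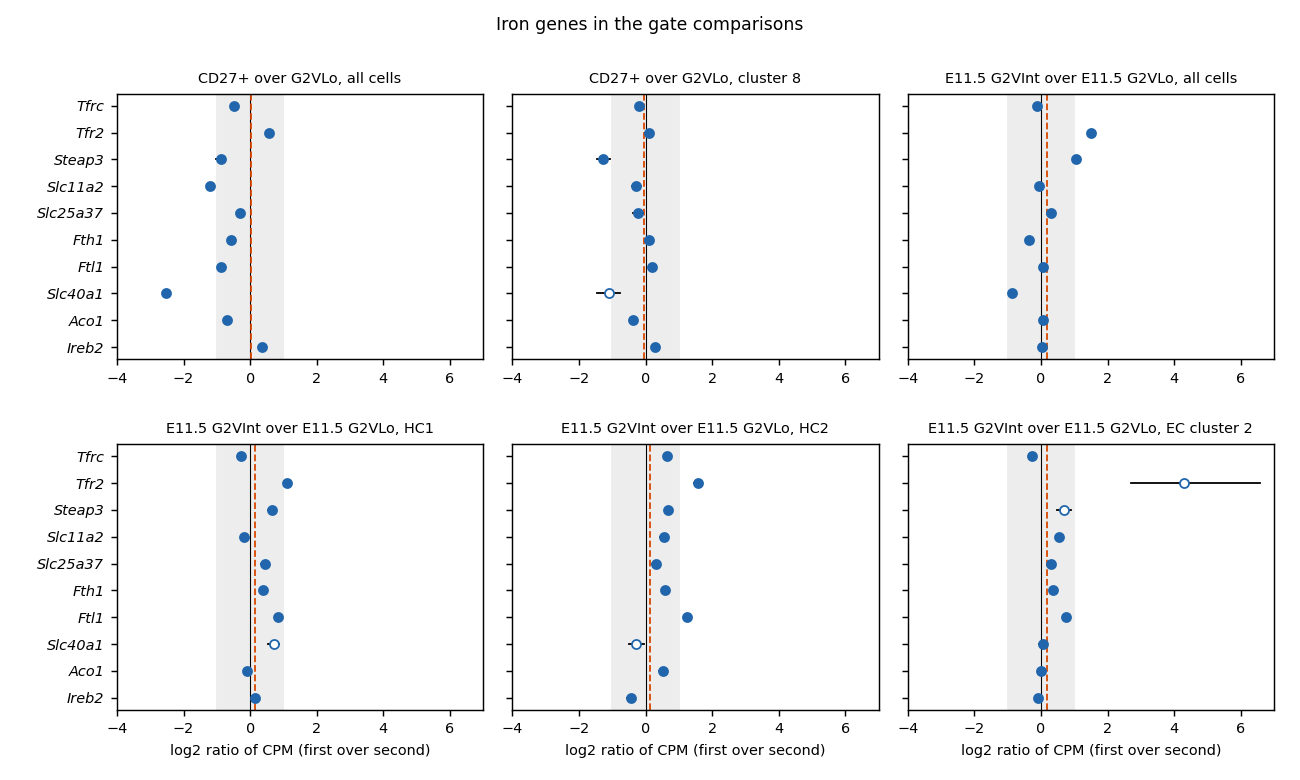
Log2 ratio of CPM of the 10 genes in 6 gate comparisons at E11.5, with 95% counting intervals, the 2-fold range shaded and the median of all genes tested dashed. Open points are members below the limits on level or share, and the open Tfr2 point of endothelial cluster 2 rests on 89 reads in G2VInt and 3 in G2VLo.

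CD27 is a surface protein of the tumor necrosis factor receptor family. Over all cells, Slc40a1 had 24.02 CPM in CD27+ and 140 CPM in G2VLo, and Slc11a2 had 11.7 CPM in CD27+ and 26.8 CPM in G2VLo. These 2 members were called lower and 0 higher, where 4.97% of 9855 genes were called lower and 1.76% higher. The log2 ratio of Slc11a2, -1.19, was -0.95 in the lower library numbers and -0.87 without clusters 3, 5 and 6. Against E11.5 G2VInt, which had 75.8 CPM of Slc40a1, 25.7 CPM of Slc11a2 and 27.5 CPM of Steap3, the CD27+ cells were called lower in these 3 members, with 7.22 CPM of Steap3. There 7.84% of 10076 genes were called lower and 1.36% higher. The log2 ratio of Slc40a1, -1.66, was -0.57 as the mean over cells and -0.71 after thinning, where it was no longer called and Tfr2 was. Both comparisons use the CD27+ cells, so they are not independent. In the CD27+ group 4 macrophage-like cells (3.36%) gave 81.8% of the Slc40a1 reads.

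Cluster 8 of the clustering of all cells held 69 CD27+ cells and 26.1% of the G2VLo cells. Steap3 had 6.29 CPM in CD27+ and 15.1 CPM in G2VLo, a ratio of 0.415 (0.361 to 0.476), and 20.3% of CD27+ and 23.6% of G2VLo cells had a read. It was the 1 member called lower, where 1.67% of 9513 genes were called lower and 1.12% higher. In the lower library numbers the limits on level and share were missed and no member was called. The other members except Slc40a1 had ratios between 0.772 and 1.21. Slc40a1 had 2.13 CPM in CD27+ and 4.56 CPM in G2VLo, too low to count. Tfr2 had 26.03 CPM in CD27+ and 24.3 CPM in G2VLo, and 52.01 CPM in cluster 8 cells of E11.5 G2VInt.

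Genes most like 4 of the members in level were ranked by Pearson's r of log2(CPM + 1) over 11 units of group and class with at least 20 cells, among 10670 genes. For Tfrc these were Ptgr2 (0.97), Zc3hav1 (0.96) and Hprt (0.96), and for Slc40a1 they were Tet2, Mfsd11 and Slc38a6 (0.94, 0.94 and 0.93). Fth1 was closest to Apobec1, Prdx5 and Ap1b1 (0.98, 0.97 and 0.97), and Slc25a37 to Calr, Nktr and Gmppb (0.91, 0.86 and 0.86). Among the members themselves, r was 0.88 between Tfrc and Steap3, 0.86 between Fth1 and Ftl1 and 0.83 between Slc25a37 and Slc11a2. The units share libraries and depth within a group, so these are descriptions.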

How the data were processed

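The deposited table holds raw counts of reads per Ensembl gene in 1087 cells. The submitters' processing notes name the counter HTSeq 0.6.0 and the build GRCm38. The aligner, annotation release, strand setting and filters are not given in the sources used here, so reads of overlapping genes (Gm5475 at Slc11a2, Gm20236 and others at Slc25a37, Gm10252 and Gm22133 at Ftl1) may be counted with those members. Of 46078 gene IDs, 45229 matched GENCODE M21. Clusters and classes are the authors' labels, from a clustering without CD27+ cells unless stated. No doublet caller was run and no cell was left out. Cells of a group were summed, since a group is 1 sample, and members, gene lists and comparisons were chosen with earlier results of these data known. All 10 members are described. From each other list, 2 to 4 genes past the 2-fold rule with the largest ratios may be named, plus any whose role the text needs, and 3 like genes for each of 4 members. Python 3.11.15 with numpy 2.4.6, pandas 2.3.3 and scipy 1.17.1 was used, and edgeR 4.0.16 in R 4.3.3 for TMM scaling alone. Some genes of the lists are not reported here. The counting was tested on simulated data. Alternatives were means over cells, totals without mitochondrial genes, TMM, thinning, either side of the median library number, leaving out the top cell, leaving out clusters 3, 5 and 6 of all cells (nearly all U1 cells, while most U2 cells stayed in), and no minimum. Comparisons by cluster 7, by cluster 11 over 10, by cluster 6 over 5, of E11.5 over E11, and of HC2 and EC in further groups were added after the data were seen, as values without counts of calls.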

Additional observations from a re-analysis of the deposited data

Results flagged for a closer look

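Tfrc differed between G2VInt and G2VLo in opposite directions in different cells of E11.5. In HC2 the log2 ratio was 0.64, with 113.9 CPM in G2VInt and 73.1 CPM in G2VLo. The HC2 cells were an unlike mix, since cluster 9 was 23 of 36 cells in G2VLo and 8 of 44 in G2VInt. Tfrc had 40.1 CPM in cluster 9 of G2VLo, and the part of this mix was not tested. In cluster 8 of the clustering without CD27+ cells it was -1.13, with 17.0 CPM in 39 G2VInt cells and 37.2 CPM in 92 G2VLo cells. The difference between these effects was not tested, since each group is 1 sample.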

How the results depend on the processing

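No paired analysis was possible because each group is 1 sample, replicate numbers follow accession order only and no test was run. The counts of called members were recomputed under the alternatives over 12 comparisons, and 89 stayed within 1.5 times of the value given. The other 12 moved. For G2VInt over G2VLo in all cells, the count of 2 was 1 without mitochondrial genes in the total, 1 in the cells with the lower library numbers and 1 without clusters 3, 5 and 6 of all cells, mostly of U1 or U2 cells. For CD27+ over G2VLo in all cells it was 1 with the lower library numbers and 1 without those clusters. For E11 over E10 in all cells it was 1 with the lower library numbers. For G2VInt over G2VLo in HC1 the count of 1 was 0 under TMM scaling, and in endothelial cluster 2 the count of 0 was 1 with no minimum on level or share. For CD27+ over G2VLo in cluster 8 the count of 1 was 0 with the lower library numbers and 2 with no minimum. For E11.5 over E10 in HC1 the count of 1 was 2 with the lower library numbers and 2 with no minimum. Of 2127 recomputed member ratios, 1 called ratio reversed: that of Slc40a1 for E11.5 over E11 in all G2VInt cells was 2.46 on the log2 scale and -0.23 without clusters 3, 5 and 6. Leaving out these clusters removes the cells that gave most Slc40a1 reads. The cause of the other shifts was not tested. TMM scaling moved every log2 ratio by 0.19 for EC over HC1, by -0.14, -0.12 and -0.15 for G2VInt over G2VLo in all cells, HC1 and endothelial cluster 2, and by 0.11 for CD27+ over G2VInt. Depth limits shares of low genes in G2VLo and CD27+ cells.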
